A study of Mus musculus with 6 samples.

Results

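The genes described here are 9 kallikrein-related peptidases of the mouse, Klk5, Klk6, Klk7, Klk8, Klk10, Klk11, Klk12, Klk13 and Klk14, together with Spink5, which encodes an inhibitor of these enzymes. They were chosen by gene name, and every non-control probe carrying one of the 10 names was kept. The array held 11 such probes among 55681 distinct probes under 34298 gene names, 2 of them for Klk12 and 1 for each of the other genes. All 10 genes were therefore measured. Gene expression was read on 6 single-color Agilent mouse arrays, 3 of esophageal and 3 of stomach epithelial organoids, which are small 3-dimensional cultures grown from epithelial stem cells. The labels give organoids of both tissues for each of mice 1, 2 and 4 at passage 0, all 6 marked as control, so both tissues came from the same animals. Wild-type mice of the work were C57BL/6 females. Its methods give an age for mice without tying it, or a genotype, to the animals behind these arrays. Stomach cultures followed a protocol that isolates glands of the corpus. Both tissues were cultured with EGF, noggin, FGF-10, N-acetylcysteine, nicotinamide, B27, N2, a TGF-β receptor kinase inhibitor and a ROCK inhibitor. Stomach medium also held gastrin and medium conditioned with WNT3A and R-spondin1, whereas esophagus medium held forskolin in their place, so tissue and medium cannot be told apart. Organoids were harvested on day 8, except those of the stomach of mouse 4, which were harvested on day 7.

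Kallikrein-related peptidases are secreted serine proteases made as inactive precursors, and in surface epithelia they activate one another in a cascade. In stratified squamous epithelium they are known for cutting the proteins that hold the outermost cells together, which lets those cells be shed. Spink5 encodes LEKTI, a secreted precursor that is cut into fragments which block several of these proteases, and its loss causes Netherton syndrome, a disease of the skin barrier. The esophagus of the mouse is lined by a cornified squamous epithelium, and the corpus of the stomach by a columnar one.

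The labelled tissues could be checked against defining markers. All 6 squamous markers examined (Krt5, Krt13, Krt14, Krt4, Col17a1 and Sox2) were higher in the esophagus arrays, and all 6 columnar markers (Krt8, Krt18, Krt7, Gata6, Hnf4a and Gkn3) were higher in the stomach arrays. None of the 7 fibroblast and muscle markers, 5 immune markers and 3 endothelial markers differed at an adjusted p below 0.05. The endothelial markers Kdr (mean 8.89 in the esophagus, 8.64 in the stomach) and Pecam1 (5.92 and 6.11) cleared background on all 6 arrays. Des, a muscle marker, did so on 2 of 3 arrays of each tissue, whereas Cdh5, Myh11 and Pdgfra did so on none. The summed immune level was 11.9 to 14.8 in the esophagus and 11.2 to 12.5 in the stomach on the log2 scale. Most of that sum came from Cd68, a lysosomal protein. Ptprc, which marks white blood cells, and Adgre1, a macrophage marker, stayed at background on all 6 arrays. In contrast Cd3e, a T cell marker, cleared it on all 6 (mean 7.39 in the esophagus against 7.89 in stomach organoids). Cd79a, a B cell marker, cleared it on 2 of 3 arrays of each tissue. The part of such cells in the results was not tested. The share of non-control spots that cleared background (the scanner software's flag for a signal well above it) was 45.5% to 51.1%, and no spot was saturated. The labels number the mice but do not describe separate cultures within a mouse, so the p-values cover the spread among 3 arrays of each tissue. A slide number read from the scanner files put the esophagus of mouse 4 alone on a second slide, so that slide cannot be told apart from that array.

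The 9 kallikreins lie within a single stretch of chromosome 7, with Klk9, which is not among them, between Klk10 and Klk8, and each is read on the array by a 60-base probe, for which the files give coordinates in build mm9. The probes for Klk8, Klk10 and Klk14, which lie in coding sequence or cross an intron, are shown because they identify the transcripts that were read, among them Klk14, whose esophagus arrays had the widest spread. The probe for Klk8 lies at chr7:51057455-51057514, that for Klk10 spans 644 genomic bases at chr7:51039077-51039720 and so crosses an intron, and that for Klk14 lies at chr7:50950330-50950389. Capitals in the Klk14 probe mark its last 3 bases, the letters of a stop triplet.
Klk8: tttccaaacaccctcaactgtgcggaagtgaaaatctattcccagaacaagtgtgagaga
Klk10: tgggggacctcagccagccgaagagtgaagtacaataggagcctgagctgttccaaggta
Klk14: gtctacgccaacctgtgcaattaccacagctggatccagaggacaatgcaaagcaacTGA
The kallikrein probes were unlike each other. Aligned base by base without gaps, no pair of the 10 kallikrein probes matched at more than 25 of 60 bases.

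Because most of these neighbors moved together, the bases before their start sites were also read. RefSeq (GRCm38.p6) gave 11 promoter windows for the 9 kallikreins, with 2 starts each for Klk6 and Klk11. The 250 bases upstream of each start were searched on both strands for TATAAA (the TATA box), TGANTCA (AP-1), AACCNGTT (grainyhead), CACACCC (KLF), GGGGCGG (SP) and CCGGAAGT (ETS). Only 1 of the 11 windows held any of these letters. It was the window of Klk6, which had GGGGCGG at positions -57 to -51 from the start. Over all 32851 windows in the table, 12.4% held TATAAA, 6.75% TGANTCA, 1.79% AACCNGTT, 6.93% CACACCC, 21% GGGGCGG and 2.88% CCGGAAGT. The 100 bases before the start are shown for that Klk6 window (chr7:43824444-43824543, plus strand), with the matched letters in capitals, and for Klk8 (chr7:43797477-43797576, plus strand), a strongly different neighbor without a match.
Klk6: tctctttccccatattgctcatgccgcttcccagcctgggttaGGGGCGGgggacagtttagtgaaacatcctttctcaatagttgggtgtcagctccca
Klk8: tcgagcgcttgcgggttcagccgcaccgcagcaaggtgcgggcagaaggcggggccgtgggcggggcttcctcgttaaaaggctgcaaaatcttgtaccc
A match of letters is a description of the sequence, and a window without one says only that those letters are not in it.

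Of the 10 genes, 8 were higher in esophageal organoids at an adjusted p below 0.05 (limma, Benjamini-Hochberg over all 55681 probes), and 0 were higher in stomach organoids. They were Klk7, Klk8, Klk10, Klk11, Klk12, Klk13, Klk14 and Spink5. Klk5 and Klk6 did not pass. Of all genes taken at their brightest probe, 7.15% were called with the esophagus higher and 7.7% with the stomach higher. At an unadjusted p below 0.05 with a 1.5-fold change, the counts of members were again 8 for the esophagus and 0 for the stomach, where 11% and 10.7% of all genes passed. Counted by probe, 9 of 11 were higher in the esophagus, where 5.94% of all probes were called in that direction and 6.22% in the other. In the same 9 probes each esophagus array lay above each stomach array, as did 15.2% of all probes measured on the 6 arrays, while 13.4% of all probes separated the other way. The median difference, esophagus minus stomach, was 7.02 on the log2 scale over the 11 probes and 0.02 over all probes. In bulk RNA, fewer cells of a type and less RNA per cell cannot be told apart. An exact permutation test of 1 probe on 6 arrays cannot give a two-sided p below 0.1, and the calls rest on the spread that limma shares across probes.

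**Figure D1:**
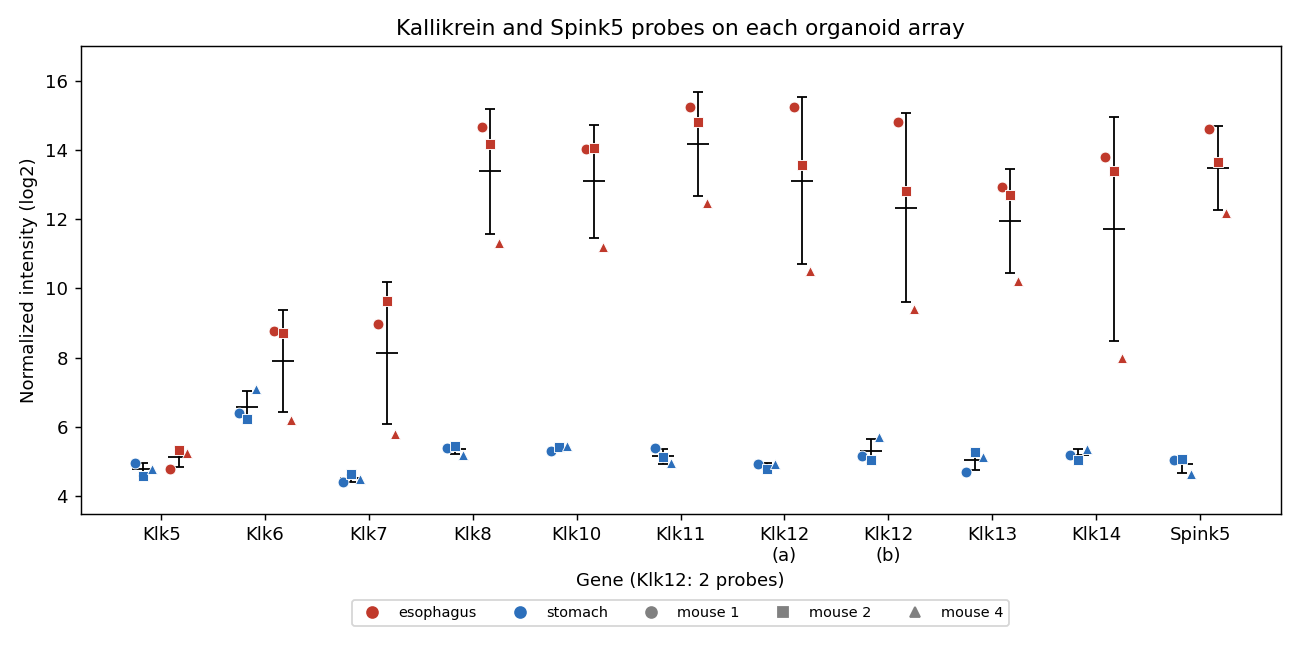
Normalized intensity (log2) of the 11 probes on each array, with esophagus in red, stomach in blue, 1 symbol for each mouse, and black bars for the mean and SD of 3 arrays (Klk12 a is the brighter of its 2 probes). Esophagus mouse 4, the red triangle, is the lowest esophagus point for 10 of the 11 probes, yet lies above the stomach points for all except Klk6, while the overlap for Klk5 comes from esophagus mouse 1.

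Klk5 and Klk14 encode trypsin-like proteases placed high in the skin cascade, where they can activate other kallikreins. For Klk14 the log2 intensity was 13.79, 13.38 and 8.0 in the esophagus of mice 1, 2 and 4, and 5.19, 5.05 and 5.37 in the stomach. The groups did not overlap, but the esophagus of mouse 4 lay far below the other two. The mean was 11.72 ± 3.23 (SD, n = 3) against 5.20 ± 0.16, a difference of 6.52 (SE 1.36, limma adjusted p = 0.0181). Only 1 of 3 stomach arrays was well above background, so this difference is set against a stomach level near the limit of detection. The SD of the esophagus arrays was the widest among the 11 probes. The Klk14 call was lost in 5 of 14 alternative settings, among them the fits without stomach mouse 1, stomach mouse 2 or esophagus mouse 2, where its adjusted p was 0.0763, 0.0788 and 0.0645. The difference was 5.49 without esophagus mouse 1, 5.69 without mouse 2 and 8.39 without mouse 4.

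Klk5 gave no usable signal. Its probe (NM_026806, chr7:51106492-51106551 in mm9) read 4.80, 5.33 and 5.25 in the esophagus and 4.97, 4.60 and 4.78 in the stomach. None of the 6 arrays was well above background, and the groups overlapped. The difference of 0.35 had a 95% interval of -0.10 to 0.79 (limma adjusted p = 0.343), which describes background signal at this probe.

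Klk7 encodes the chymotrypsin-like enzyme that cuts corneodesmosin, a protein of the junctions between cornified cells. Its log2 intensity (NM_011872, chr7:51071388-51071447) was 8.97, 9.64 and 5.81 in the esophagus and 4.42, 4.63 and 4.49 in the stomach. All esophagus arrays were well above background and no stomach array was. Where a whole tissue was not well above background, values under the lowest signal that was were raised to it. The resulting fold of means, written here and below as at least, is a lower bound only as to the dim tissue. It makes no allowance for the spread among arrays of the brighter tissue. On this basis the esophagus mean of Klk7 exceeded its stomach level by at least 11.8-fold. The fitted difference was 3.62 (SE 0.86, 95% interval 1.62 to 5.63, limma adjusted p = 0.0324). This was the least stable call. It was lost in 7 of 14 settings, including the removal of any single array except that of esophagus mouse 4, with adjusted p of 0.0696 to 0.119. The fitted difference was 2.87 without esophagus mouse 2, 4.79 (adjusted p = 2.06e-05) without esophagus mouse 4, 2.52 with an offset of 50 in the background correction, and 6.03 (adjusted p = 0.00602) with the processed intensity scaled to its 75th percentile.

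Klk6, another trypsin-like member, known for its expression in the nervous system, was detected in both tissues. Its log2 intensity (NM_011177, chr7:51086977-51087036) was 8.79, 8.70 and 6.20 in the esophagus and 6.41, 6.24 and 7.10 in the stomach. Mice 1 and 2 were higher in the esophagus, mouse 4 was higher in the stomach, and the groups overlapped. The difference of 1.32 had a 95% interval of -0.20 to 2.84 and missed the threshold (limma adjusted p = 0.28). The result turned on 1 array. Without the esophagus of mouse 4, the difference was 2.16 (SE 0.27, adjusted p = 0.0024), and the count of called genes became 9. All 6 arrays were well above background, so Klk6 is the only one of the 10 genes that was above background throughout the stomach samples.

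Klk8 and Klk11 encode trypsin-like enzymes found in the upper layers of squamous epithelia, and they gave large differences with narrower relative errors. The Klk11 probe (NM_001177373, chr7:51034552-51034611) read 15.24, 14.81 and 12.46 in the esophagus and 5.38, 5.12 and 4.95 in the stomach. The gap between the lowest esophagus and the highest stomach array was 7.07 log2 units. The difference was 9.02 (SE 0.64, limma adjusted p = 7.01e-05), or 517-fold on this scale, and it was 9.87 without esophagus mouse 4.

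Klk8 (NM_008940) read 14.67, 14.16 and 11.31 in the esophagus and 5.38, 5.47 and 5.21 in the stomach. Again the groups were far apart and mouse 4 was the lowest esophagus array. The difference was 8.03 (SE 0.77, limma adjusted p = 0.000354), or 261-fold. It was 7.38 without esophagus mouse 1 and 9.06 without mouse 4. For both Klk8 and Klk11 only 1 of 3 stomach arrays was well above background, so these folds are set against stomach levels near the limit of detection.

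Klk10, first described as a gene of normal epithelial cells that is lost in tumor lines, followed the same form. Its intron-crossing probe (NM_133712) read 14.03, 14.04 and 11.20 in the esophagus and 5.30, 5.41 and 5.47 in the stomach. Mice 1 and 2 were nearly equal and mouse 4 was lower, with no overlap between tissues. The difference was 7.70 (SE 0.69, limma adjusted p = 0.000255), with 1 of 3 stomach arrays well above background. Klk13 encodes a trypsin-like enzyme of squamous epithelia. Its probe (NM_001039042, chr7:50982064-50982123) read 12.93, 12.69 and 10.22 in the esophagus and 4.71, 5.28 and 5.13 in the stomach. No stomach array was well above background. The esophagus mean exceeded the stomach mean by at least 120-fold for Klk13, which is also the fitted fold. The difference was 6.91 (SE 0.65, 95% interval 5.40 to 8.42, limma adjusted p = 0.000325). Without esophagus mouse 4 the differences were 8.64 for Klk10 and 7.77 for Klk13.

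Klk12 was the gene with 2 probes, whose targets lie next to each other. The brighter one (ENSMUST00000107970.7, chr7:51028889-51028948) read 15.25, 13.58 and 10.49 in the esophagus and 4.92, 4.79 and 4.94 in the stomach. The other one (NM_027097, chr7:51028738-51028797) read 14.81, 12.80 and 9.40 against 5.17, 5.05 and 5.71. Both probes gave the same order in the esophagus, mouse 1 above mouse 2 above mouse 4, which spread the arrays over 4.75 and 5.40 log2 units. The brighter probe did not clear background on the stomach arrays. Its means differed by at least 298-fold, which is also the fitted fold (8.22, SE 1.01, 95% interval 5.86 to 10.58, limma adjusted p = 0.00142). The other was well above background on 2 of 3 stomach arrays and gave a difference of 7.02 (SE 1.16, limma adjusted p = 0.00608). The call of this second probe was lost in 1 of 14 settings, trended and robust eBayes (limma adjusted p = 0.0554). Without esophagus mouse 1 the fitted differences of the 2 probes were 7.15 and 5.79, and without mouse 4 they were 9.53 and 8.49.

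Spink5 encodes the inhibitor LEKTI. Its single probe (A_66_P126147, NM_001081180) read 14.61, 13.65 and 12.19 in the esophagus and 5.03, 5.08 and 4.64 in the stomach. All esophagus arrays were well above background and no stomach array was. The esophagus mean of the inhibitor was higher by at least 379-fold, a bound that is also the fitted fold. The difference was 8.56 (SE 0.53, 95% interval 7.32 to 9.80, limma adjusted p = 3.3e-05), with the smallest adjusted p among the 11 probes. Its esophagus arrays spanned 2.42 log2 units, less than those of each called kallikrein. In the 14 alternative settings the Spink5 call was kept each time, with differences of 7.38 to 11.92, and 9.21 without esophagus mouse 4.

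The esophagus of mouse 4 was lower than the mean of mice 1 and 2 in each of the 9 called probes, by 1.94 to 5.59 log2 units. The smallest difference was that of Spink5, where mice 1 and 2 averaged 3.84-fold above mouse 4. The largest was that of Klk14 at 48.1-fold. The median over the 9 called probes was -3.10. Klk6 was also lower in mouse 4, by 5.82-fold.

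The same difference was taken for other probes. Of the 23632 probes that cleared background in the esophagus of mice 1 and 2, 1.75% were lower in mouse 4 by at least as much as Spink5. Among the 3189 of these called with the esophagus higher, the share was 3.83%. The limit used was the smallest of the members' own differences, so these shares describe the other probes and do not test the members. The values are quantile normalized, which gives every array the same overall distribution, so a shift of the whole array would not be seen here. The 6 squamous markers differed by -1.39 (Krt4) to 0.07 (Sox2), and their summed level was 18.44, 18.78 and 18.40 in mice 1, 2 and 4. The summed level of the 5 immune markers was 14.8 in mouse 1 and 11.9 in mouse 4, with mouse 2 between them, and Cd68 alone was lower in mouse 4 by 2.06. The part of this in the members' differences was not tested. Without the esophagus of mouse 4, differences of the 9 called probes rose to between 4.79 and 9.87, and none lost its call. This array was the only one on its slide, and the part of the slide in this difference was not tested.

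**Figure D2:**
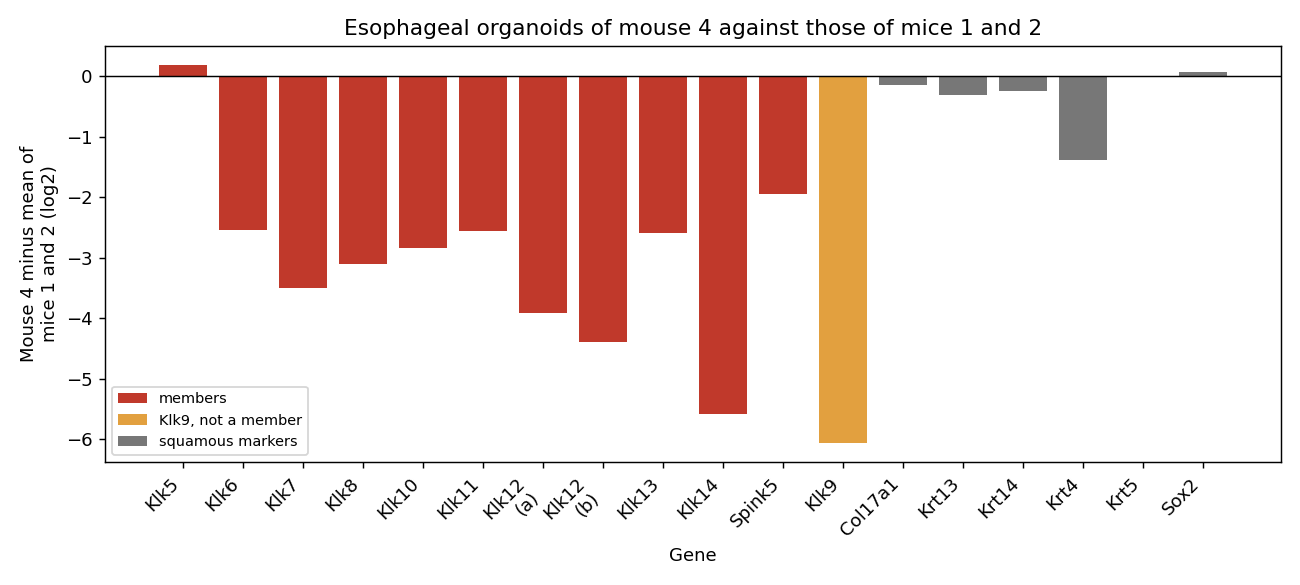
Log2 difference of the esophagus array of mouse 4 from the mean of mice 1 and 2, for the 11 probes (red), Klk9 (orange) and the 6 squamous markers (grey), with 1 bar for each probe and no error bar since each is 1 array against 2. Bars of the called members reach from -1.94 for Spink5 to -5.59 for Klk14, Klk9 is at -6.06, and the squamous markers lie between -1.39 and 0.07.

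The called kallikreins lay within a single stretch. The 10 kallikrein probes span 156 kb in mm9, running from Klk14 through Klk13, Klk12, Klk11, Klk10, Klk8, Klk7 and Klk6 to Klk5. From Klk14 to Klk7 every kallikrein probe was called higher in the esophagus. Beyond Klk7 the differences were 1.32 for Klk6 and 0.35 for Klk5, neither of which passed. Klk9, which lies between Klk10 and Klk8 and was not among the chosen names, read 14.98, 14.29 and 8.57 in the esophagus and 5.71, 5.62 and 5.56 in the stomach. Its difference was 6.98 (SE 1.47, limma adjusted p = 0.0194), and the call was lost in 5 of 14 settings. Without esophagus mouse 4 the difference was 9.0, and the lowest over the 14 settings was 5.80.

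The remaining kallikreins of the cluster behaved otherwise. Of the 18 other kallikrein genes listed, 1 was called for the esophagus, 0 for the stomach and 17 did not pass, and the median difference was -0.02. The 17 include Klk4, Klk15, Klk1 and the Klk1b genes, which lie beyond Klk5, and Klkb1, the plasma kallikrein. Of the 18 genes, 12 were not well above background on any of the 6 arrays. The Klk1b genes are close copies of one another, so their probes may share signal. One non-kallikrein transcript, 2310002F09Rik, has its probe between those of Klk13 and Klk12 and was named after its values were seen, because of that place. Its mean was 15.41 in the esophagus against 14.85 in stomach organoids, bright in both, and it did not pass (difference 0.56, limma adjusted p = 0.325).

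**Figure D3:**
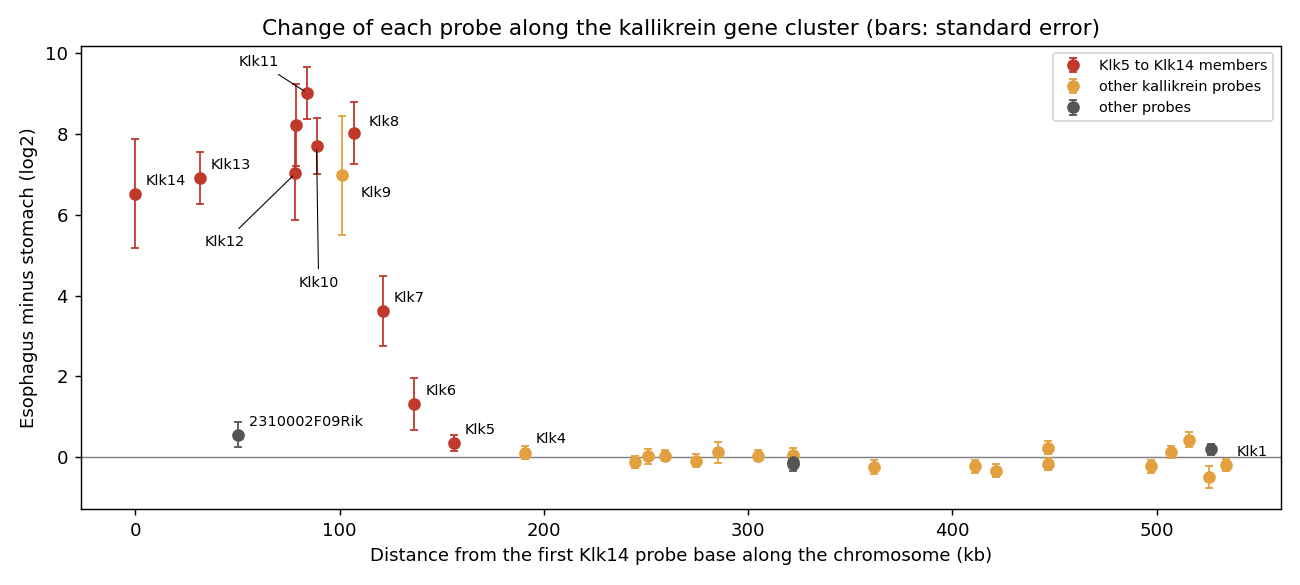
Difference between tissues (log2, esophagus minus stomach, bars for SE) of each probe against its distance in kb from the Klk14 probe, with members in red, other kallikreins in orange and other transcripts in grey. Member probes from Klk14 to Klk7, and Klk9 among them, lie between 3.62 and 9.02, while Klk6, Klk5 and the probes beyond them lie between -0.49 and 1.32.

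Other serine protease inhibitors were listed beside Spink5. Of the other Spink genes, which encode small Kazal-type inhibitors, 11 were listed and all were on the array, with Spink3 counted as Spink1, its current name. Spink2 was higher in the esophagus (difference 1.06, limma adjusted p = 0.0428), but this call was lost in 7 of 14 settings. Spink4, an inhibitor secreted by mucous cells of the gut, had a stomach mean at least 199-fold higher (difference -7.64, limma adjusted p = 1.62e-06). The other 9 did not pass, and 8 of the 11 were not well above background on any array. Hence Spink5 and Spink4 were the family members with large differences, in opposite directions.

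Among 12 inhibitors outside the Spink family, 4 were called for the esophagus, 2 for the stomach and 6 did not pass. Slpi, the secreted leukocyte protease inhibitor, differed by 10.87 (limma adjusted p = 1.27e-05). The esophagus mean of Wfdc12, of the same inhibitor fold, was higher by at least 170-fold (fitted difference 7.41, SE 1.645, adjusted p = 0.0242). Cst6, which encodes cystatin M/E, was also higher, by 5.46, and the mean of Wfdc5 was higher by at least 18.6-fold (fitted difference 4.22). As before, these bounds do not cover the spread among esophagus arrays. Without esophagus mouse 4 the fitted differences were 11.56 for Slpi, 9.63 for Wfdc12, 5.77 for Cst6 and 5.08 for Wfdc5. Over the 14 settings the lowest fitted differences were 10.10 for Slpi, 5.88 for Wfdc12, 4.49 for Cst6 and 3.20 for Wfdc5. A2ml1 and Spint2, the latter an inhibitor of membrane-bound serine proteases, were higher in the stomach, each with a difference of -1.16 (adjusted p = 0.00491 and 0.0172). The Wfdc12 call was lost in 6 of 14 settings and the Spint2 call in 3.

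Of 10 proteases that can activate kallikreins or each other, 3 were called with the esophagus higher and 2 with the stomach higher. Tmprss13 differed by 6.75 (limma adjusted p = 1.81e-06) and Plau, which encodes urokinase, by 2.08 (adjusted p = 0.0183, lost in 3 of 14 settings). Tmprss11d, at background on all stomach arrays, had an esophagus mean at least 51.5-fold higher (fitted difference 5.71, adjusted p = 6.94e-05). Hpn, which encodes hepsin, was higher in the stomach with a difference of -6.57 (adjusted p = 1.78e-06). Mep1b, a meprin subunit at background on all esophagus arrays, had a stomach mean at least 8.10-fold higher (fitted difference -3.02, adjusted p = 0.000663). St14, which encodes matriptase, an activator of prokallikreins in skin, was bright in both tissues but missed the threshold (-0.70, adjusted p = 0.0528). Prss8, which encodes prostasin, read 12.51, 10.44 and 8.39 in the esophagus and 10.59, 11.15 and 10.88 in the stomach, with overlapping groups (adjusted p = 0.839).

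Among 10 substrates of kallikreins in skin, 3 were called for the esophagus, 0 for the stomach and 7 did not pass. Cdsn, which encodes corneodesmosin, read 14.65, 14.30 and 7.48 in the esophagus and 5.48, 5.36 and 5.59 in the stomach. Its esophagus arrays had mouse 4 far below the others, as for Klk14 and Klk9, and its difference of 6.66 (limma adjusted p = 0.0413) lost its call in 7 of 14 settings. The esophagus mean of Dsg1b, a desmoglein of squamous cell junctions, was higher by at least 24.0-fold (fitted difference 4.61, adjusted p = 0.0147). The Dsg1b call was lost in 5 of 14 settings. Without esophagus mouse 4 the fitted differences were 8.99 for Cdsn and 5.86 for Dsg1b. Over the 14 settings their lowest fitted differences were 5.41 and 3.47. Casp14, a protease of cornifying cells, differed by 3.53 (adjusted p = 0.00118). Of 5 genes for receptors and signals that kallikreins act on, Tslp, a cytokine of barrier epithelia, had an esophagus mean at least 4.42-fold higher. Its fitted difference was 2.14 (adjusted p = 0.0126, lost in 2 of 14 settings), and the lowest over the 14 settings was 1.37. F2r, which encodes a thrombin receptor, was higher in the stomach (-2.20, adjusted p = 0.00658). F2rl1, which encodes the receptor PAR2 that trypsin-like kallikreins can cut, was well above background on all 6 arrays and did not pass (-0.66, adjusted p = 0.223).

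**Figure D4:**
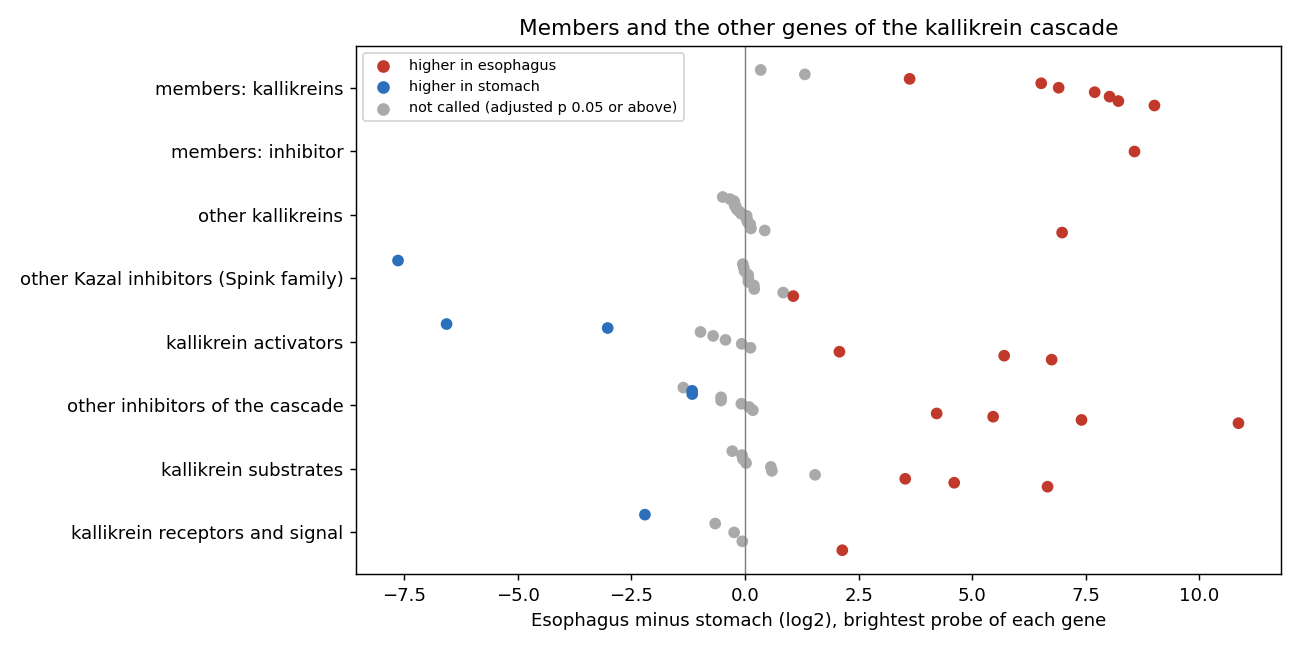
Difference between tissues (log2, esophagus minus stomach) of each gene at its brightest probe, with 1 point for each gene, by list, in red where called higher in the esophagus, blue where called higher in the stomach and grey otherwise. Members lie between 0.35 and 9.02, 17 of the 18 other kallikreins lie near 0, and Slpi, at 10.87, has the highest value outside the marker lists.

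Genes whose pattern over the 6 arrays was most like that of a member were found by the root mean square difference of log2 values, each gene centered on its own mean, among 18473 genes that cleared background on each of the 3 arrays of at least 1 tissue. Klk14 was nearest to Sprr2k, a cornified envelope precursor (0.15 log2 units), then Klk9 (0.31) and Alox12b, a lipoxygenase of the skin barrier (0.32). Klk7 was nearest to the connexin gene Gjb6 (0.17), followed by Lipk (0.33) and Gm20558 (0.38). Klk12 was nearest to 2300002M23Rik (0.21), then Sprr2j-ps (0.37) and Sprr2i (0.55). Klk10 and Klk8 were both nearest to Elovl4, an enzyme that lengthens fatty acids (0.28 and 0.43). For Klk10 the next were Gm5478 (0.46) and Endou (0.54), and for Klk8 they were 2300002M23Rik (0.49) and Ndufa4l2 (0.56).

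Klk11 and Spink5 were both nearest to Cldn17, which encodes a claudin (0.35 and 0.44). Klk11 was then nearest to Sprr1b (0.39) and Krt16 (0.44), and Spink5 to the protease genes Tmprss11a (0.50) and Tmprss11g (0.51). Klk13 was nearest to Ifi204 (0.42), Gm5478 (0.44) and Elovl4 (0.45). Klk6, whose arrays overlapped between tissues, was nearest to Tnfaip3 (0.25), then an unnamed genomic interval (0.25) and 1700003F12Rik (0.26). Klk5 was not compared because its probe was not well above background. These likenesses are over 6 arrays of 2 tissues and carry no test.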

How the data were processed

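RNA of 6 organoid samples was labelled with Cy3 and hybridized to Agilent arrays, which the authors read with Feature Extraction (version 11.5.1.1). For each spot the deposited files of the scanner give its intensity, its local background and flags (other values that mark a spot as above background, saturated or an outlier). The authors' deposited table holds log2 values that they background corrected and quantile normalized. Its 2029 empty cells were the outlier spots, and normexp with an offset of 15 on median intensities gave its values with a largest difference of 0.0726, although the sources used here do not name the offset. Each column was nearest to the array of its own label.

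The log2 table was the main input. Spots of a probe were averaged, and limma 3.58.1 in R 4.3.3 (lmFit, eBayes, two-sided) compared esophagus with stomach over all 6 arrays without a block. The study's methods name limma and state no block. P-values were adjusted by Benjamini-Hochberg over all 55681 probes, and called means an adjusted p below 0.05. A gene was taken at its probe with the highest mean. The fit was tested on simulated data. Array number limits the precision here, and a gene at background throughout a tissue is given as a bound beside its fitted difference. Such a bound concerns the dim tissue and does not cover the spread among arrays of the other. Alternatives were normexp on mean intensities with offsets of 16 and 50, the processed intensity scaled to its 75th percentile, outlier spots kept, a filter on dim probes, trended and robust eBayes, the mouse or slide as a block, each array left out, and other call rules.

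Named were all members, from each other list the 2 genes with the largest called change in each direction, and for each detected member the 3 genes most like it in pattern. Cst6, Wfdc5, Plau, Casp14, St14, Prss8, F2rl1, Cd68, Cd3e, Cd79a, Adgre1, Ptprc, Kdr, Pecam1, Des, Cdh5, Myh11 and Pdgfra were named after their values were seen. The members and lists were chosen with earlier results of these data known. The labels number the mice, and a number marks 1 animal, so arrays with the same number are paired. As a check, the residuals left after subtracting each tissue's mean were compared between the paired arrays across probes, with r = 0.025, 0.012 and -0.008. Unpaired arrays gave r of -0.073 to 0.040, so the residuals show no sign of the pairing. The GRCm38.p6 RefSeq tables held promoters of 9 of the 10 genes, Spink5 being the other, and were used for no coordinates of probes.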

Additional observations from a re-analysis of the deposited data

How the results depend on the processing

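No member reversed its direction in any setting. Of 153 comparisons of a member probe with its main value, 138 kept their side of the threshold, 13 lost a call and 2 gained one. The losses were 7 for Klk7, 5 for Klk14 and 1 for the second Klk12 probe, and both gains were Klk6. With an offset of 50, Klk7 (2.52, adjusted p = 0.122) and Klk14 (5.49, adjusted p = 0.0798) lost their calls. With trended and robust eBayes, Klk7, the second Klk12 probe and Klk14 did (adjusted p = 0.115, 0.0554 and 0.112). Klk6 gained its call without esophagus mouse 4 and with the slide as a block, which are the same fit (2.16). The number of called genes higher in the esophagus was 6 to 9 over 17 settings, 6 to 9 when 1 array was left out, and 0 in the stomach each time. With the mouse as a block for pairing, 9 probes and 8 genes were called, and no member's call changed. With the processed intensity scaled to its 75th percentile, the median of all probes was 0.19, against 0.02 in the main table. Member differences were then wider, up to 11.92 for Spink5. This setting changed both the intensity used and the scaling, and their separate parts were not tested. None of the other list genes called changed direction. The causes of the lost and gained calls were not tested. Dim stomach signals limit what folds can show, since 5 of the 11 probes cleared background on none of the stomach arrays.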

Other observations

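Several genes of the other lists were also lower in the esophagus of mouse 4 than in mice 1 and 2, and they were picked for this after their values were seen. Cdsn was 128-fold lower, Wfdc12 101-fold and Klk9 66.9-fold. Dsg1b was 13.5-fold lower, Wfdc5 5.99-fold and Slpi 4.27-fold. Plat, which encodes tissue plasminogen activator, read 12.33, 9.28 and 6.55 in mice 1, 2 and 4, and Prss8 read 12.51, 10.44 and 8.39, so for both of them mice 1 and 2 also lay far apart. In contrast Casp14, at 9.64 in mouse 4 against a mean of 9.05 in mice 1 and 2, was not lower, and Tmprss13 was 1.5-fold lower. Each of these is a comparison of 1 array with 2 and carries no test.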
